A study of Ovis aries with 23 samples.

Results

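Within a single photoperiod group, PT samples of sheep fell into a set with abundant CRY1 transcript and a set with little of it, and the genes that varied with CRY1 among the SP and LP day 1 samples are described here. The samples labelled SP (5 samples) and LP day 1 (6 samples) were chosen by label and divided into classes selected on the CRY1 level (ENSOARG00000017816), as the CPM of total counts, the share of a sample's counts scaled to a common total. Samples at 80 CPM or more were called CRY1-high (7 samples) and those under 80 CPM CRY1-low (4 samples), which makes 11 of the 23 samples of the series. The division rests on a measured value and on no labelled treatment. A p-value therefore says whether a gene varied with CRY1 among these samples, and CRY1 itself was left out of the tested genes.

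All samples were from the PT of neutered male Scottish blackface sheep. The SP group had been held on short days, and the LP groups had been moved to long days for 1, 7, or 28 days. Ages and the hour at which each sample was taken are not in the labels. The labels do not say that samples of a group are separate animals, so p-values measure only the spread between these samples. Transcripts of the PT thyrotroph were checked first, though CGA and CHGA are also made by pars distalis cells. CGA, the subunit shared by pituitary glycoprotein hormones, lay between 3886 and 11559 CPM in the CRY1-high samples and between 5717 and 10418 CPM in the CRY1-low samples. CHGA, a protein of dense-core secretory granules, lay between 1774 and 3632 CPM and between 2092 and 4292 CPM. TSHB, the beta subunit of TSH, lay between 181 and 664 CPM and between 47.03 and 281 CPM, and MTNR1A had counts in all of the 11 samples but LP day 1 sample 4. The ranges of CGA, CHGA, and TSHB overlap between the classes.

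CRY1 is a repressor of the circadian clock. The transcription factors CLOCK and ARNTL (also called BMAL1) activate the PER and CRY genes, whose proteins feed back on this activation, while NR1D1 and NR1D2 (the REV-ERB receptors) repress ARNTL. DBP and TEF are activators driven by the same loop. In the PT the clock genes follow the nightly melatonin signal, and CRY1 is known as the clock gene that melatonin onset induces there. The melatonin receptor MTNR1A sits on PT thyrotrophs, the cells whose TSH carries day length information to the hypothalamus.

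On SPs, CRY1 stood at 199 CPM in sample 2, at 228 CPM in sample 4, and at 446 CPM in sample 5, which are the CRY1-high samples. It stood at 23.03 CPM in SP sample 1 and at 22.5 CPM in SP sample 3. The LP day 1 samples 2, 3, 4, and 5, also CRY1-high, held 205, 278, 308, and 201 CPM, whereas samples 1 and 6 held 29.9 and 36.7 CPM. The samples nearest to the cut were LP day 1 sample 6 at 36.7 CPM and SP sample 2 at 199 CPM, so no sample lay close to it. The members of each class were chosen by these CRY1 values, which are given as a description.

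**Figure D1:**
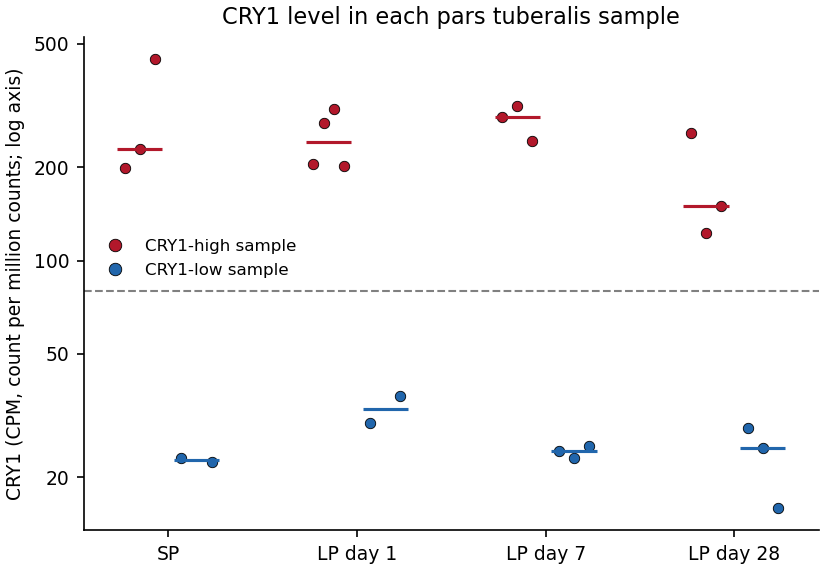
CRY1 level of each of the 23 samples in CPM of total counts (log axis), by photoperiod group. Points are samples, short lines are class medians, and the dashed line is the cut at 80 CPM. In SP and LP day 1 the CRY1-high samples lie between 199 and 446 CPM and the CRY1-low samples between 22.5 and 36.7 CPM.

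The 11 samples held 307952 to 3691321 counts. LP day 1 sample 4 was the shallowest, and a count of 3, taken as the detection limit, stands at 9.74 CPM there, which covers counting error only. LP day 1 samples 3 and 4, both CRY1-high, were close to each other. Their counts differed by a chi-square of 1.10 per gene at equal depth, where counting noise alone gives about 1 and the next closest pair within a group stood at 1.51. They were kept as 2 samples, which treats them as independent although no other pair was as close. Results are therefore also given with the pair summed. Total counts, genes with a count, the share of the 10 most abundant genes, and the share of prolactin (PRL) counts did not pass a test between the classes (two-sided exact permutation within photoperiod groups, 150 arrangements, p = 0.68, 0.76, 0.453, and 0.413, each adjusted to 0.76). PRL, the product of pars distalis lactotrophs, took 2.69% to 18.6% of the counts. The markers of other cell types overlapped in their summed levels. The 9 measured pars distalis markers summed to between 35376 and 271421 CPM in CRY1-high and between 47138 and 133043 CPM in CRY1-low samples, most of it PRL. The log2 fold changes of these 9 were positive for 5 and negative for 4, with a median of 0.05 beside -0.0011 over all genes tested. PRL gave 0.72 ± 0.55 (FDR = 0.805). GNRHR, the GnRH receptor of gonadotrophs, did not overlap between the classes, nor did 1.41% of all genes tested. It lay between 13.1 and 68.2 CPM in CRY1-high and between 76.7 and 92.3 CPM in CRY1-low samples (log2 fold change -0.76 ± 0.28, FDR = 0.505). PCSK1, a prohormone convertase, was apart within each photoperiod, with 109 to 343 CPM and 329 to 439 CPM over both (-0.59 ± 0.23, FDR = 0.553). The share of all genes apart within each photoperiod was not counted. The part of pars distalis cells in the class differences was not tested as such. A fit with the pars distalis marker GH1 as a covariate is given with the alternatives at the end. The 2 neural and glial markers, GFAP and MBP, summed to between 60.9 and 1104 CPM and between 116 and 741 CPM. No member of these lists passed the test between the classes, and none of the measured members was at 0 in all samples.

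A total of 19 of 15189 genes differed between CRY1-high and CRY1-low samples at an FDR under 0.05 (edgeR quasi-likelihood test with photoperiod group as covariate, 0.125% of the genes tested). Of these, 7 were higher (0.0461%) and 12 were lower (0.079%) in CRY1-high samples. An unadjusted p under 0.05 was reached by 1129 genes (7.43%). The classes did not overlap over the 11 samples for 17 of the 19 genes, and for 214 of all 15189 (1.41%). GADD45G, the dopamine receptor DRD1, and MTNR1A had the lowest FDR values, at 18.5-fold higher, 11.6-fold higher, and 7.03-fold lower. In bulk tissue, fewer cells of a type and less RNA per cell cannot be told apart. CPM values of genes other than CRY1 are TMM normalized over all 23 samples.

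GADD45G encodes a growth-arrest and DNA-damage-inducible protein that responds to many acute stimuli. Its level was 74.1, 45.0, and 93.4 CPM in the CRY1-high SP samples 2, 4, and 5 and 2.65 and 1.73 CPM in the CRY1-low SP samples 1 and 3. The LP day 1 samples held 25.9, 82.4, 113, and 46.6 CPM in samples 2, 3, 4, and 5 (CRY1-high) and 3.74 and 7.10 CPM in samples 1 and 6. Every CRY1-high sample exceeded every CRY1-low sample by more than 3-fold. The log2 fold change was 4.21 ± 0.44 (SE, FDR = 0.000438). DRD1, which couples to cAMP production, was likewise higher in every CRY1-high than in any CRY1-low sample. It measured 59.9, 49.9, and 100.2 CPM in CRY1-high and 2.65 and 4.04 CPM in CRY1-low SP samples. The CRY1-high LP day 1 samples held 47.2, 74.6, 110, and 35.0 CPM and the CRY1-low ones 6.95 and 10.1 CPM. The classes were apart in both photoperiods, with a log2 fold change of 3.54 ± 0.38 (SE, FDR = 0.000438).

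MTNR1A was low in all CRY1-high samples. On SPs it was at 1.02, 1.94, and 2.54 CPM in CRY1-high samples and at 17.2 and 19.9 CPM in CRY1-low samples. The CRY1-high LP day 1 samples 2, 3, 4, and 5 held 2.50, 1.56, 0, and 4.01 CPM, and the CRY1-low samples 12.3 and 13.2 CPM. The classes did not overlap, and the log2 fold change was -2.81 ± 0.33 (SE, FDR = 0.00103). These are few reads, from 0 to 11 counts in a CRY1-high and from 26 to 69 counts in a CRY1-low sample. The value of 0 is that of the shallowest sample, where up to 9.74 CPM would be allowed, still under the lowest CRY1-low value.

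The other genes higher in CRY1-high samples with a symbol were MTERF2 and RD3L. MTERF2, of a family that binds mitochondrial DNA, ranged from 65.2 to 102 CPM (median 71.2) in CRY1-high samples and stood at 28.1, 31.2, 41.9, and 21.3 CPM in the CRY1-low samples (log2 fold change 1.33 ± 0.18, FDR = 0.00411). RD3L ranged from 8.75 to 23.7 CPM (median 14.4) against 1.85, 2.89, 3.21, and 6.09 CPM (1.96 ± 0.33, FDR = 0.0239). Neither gene's classes overlapped. The remaining 3 higher genes have no paired symbol. They are ENSOARG00000004500 (log2 fold change 1.07), ENSOARG00000007592 (1.87), and ENSOARG00000008370 (0.78).

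Among the genes lower in CRY1-high samples, VAV3 stood at 4.73 to 14.8 CPM (median 7.45) against 24.9 and 22.2 CPM in the CRY1-low SP and 33.1 and 21.3 CPM in the CRY1-low LP day 1 samples (log2 fold change -1.73 ± 0.23, FDR = 0.00387). MARCH4, a membrane-bound ubiquitin ligase, stood at 13.8 to 33.4 CPM (median 20.9) against 81.6, 49.6, 37.1, and 81.6 CPM (-1.54 ± 0.24, FDR = 0.0140). PEG10, an imprinted gene derived from a retrotransposon, stood at 70.3 to 132 CPM (median 86.7) against 182, 164, 220, and 167 CPM (-0.99 ± 0.15, FDR = 0.0140). The classes were apart for all 3 genes.

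The remaining lower genes with a symbol are ACSL4, CYP4V2, AMPD3, SLCO3A1, and MAST3. ACSL4 activates long-chain fatty acids, and its log2 fold change was -0.75 ± 0.13 (FDR = 0.0252). CYP4V2, a fatty acid hydroxylase, lay between 48.4 and 71.2 CPM in CRY1-high and between 91.8 and 106 CPM in CRY1-low samples and gave -0.79 ± 0.12 (FDR = 0.0148). AMPD3, which deaminates AMP, lay between 45.2 and 101 CPM and between 125 and 205 CPM and gave -1.08 ± 0.19 (FDR = 0.0252). For SLCO3A1, an organic anion transporter, the ranges were 8.90 to 23.1 CPM and 27.5 to 49.7 CPM, with -1.15 ± 0.21 (FDR = 0.0491). For MAST3, a serine/threonine kinase, they were 67.0 to 91.8 CPM and 115 to 159 CPM, with -0.74 ± 0.13 (FDR = 0.0252). The classes did not overlap for these genes, except that ACSL4 of LP day 1 sample 2 (117 CPM, CRY1-high) exceeded that of SP sample 3 (105 CPM, CRY1-low). ENSOARG00000016126 (-1.03) and ENSOARG00000016724 (-0.89), which lack a paired symbol, were lower as well.

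ENSOARG00000020801 was the only one of the 19 genes that rested on a single photoperiod. It stood at 56.9 and 93.5 CPM in the CRY1-low SP samples and at 0 in both CRY1-low LP day 1 samples, while the CRY1-high samples held 0 to 5.19 CPM. ENSOARG00000020789, singled out after its values were seen, had a like pattern, with 255 and 493 CPM in the CRY1-low SP samples and at most 12.6 CPM in the other 9 samples (FDR = 0.0646). These 2 genes were high in SP samples 1 and 3 and not in the CRY1-low class as such.

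Of the 19 genes, 6 passed the FDR threshold in each of the 11 fits that left out 1 sample. They were GADD45G, DRD1, MTNR1A, VAV3, MTERF2, and ENSOARG00000004500. The other 13 lost it in at least 1 of these fits. With sample number as a replicate block (edgeR, 3 residual degrees of freedom), GADD45G alone of the 6 genes passed. The FDR was 0.151 for DRD1, 0.708 for MTNR1A, and 0.98 for VAV3, MTERF2, and ENSOARG00000004500. SLCO3A1 passed in 2 of the 11 fits, ENSOARG00000020801 in 3, and AMPD3, ACSL4, and ENSOARG00000016724 in 4. Among genes with a symbol, summing LP day 1 samples 3 and 4 took ACSL4, AMPD3, and MAST3 to an FDR of 0.0695 and SLCO3A1 to 0.0714. The number of genes past the threshold lay between 7 and 37 in these fits. Without SP sample 1 a total of 7 genes passed, 6 of them among the 19, and with LP day 1 samples 3 and 4 summed 12 passed, all among the 19.

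**Figure D2:**
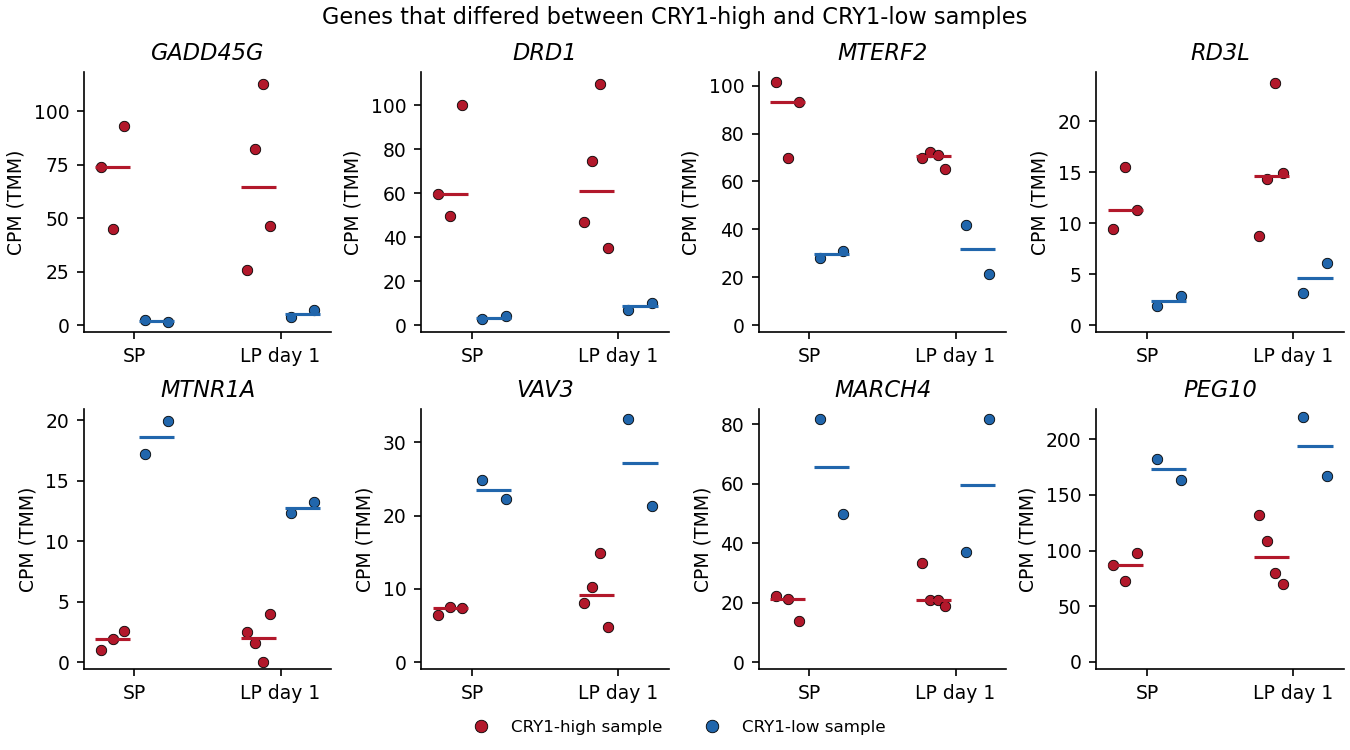
CPM (TMM normalized, linear axis) of 8 genes with an FDR under 0.05, in the SP and LP day 1 samples. Points are samples and short lines are class medians. GADD45G, DRD1, MTERF2, and RD3L lie higher and MTNR1A, VAV3, MARCH4, and PEG10 lower in CRY1-high samples, with no overlap.

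The class difference was next examined within each photoperiod. Within SPs (3 against 2 samples) all 19 genes had the same direction as in both groups together, and within LP day 1 (4 against 2 samples) 18 had it, the exception being ENSOARG00000020801. A total of 7 genes passed within SPs (0.046% of 15216), among them GADD45G, DRD1, and MTNR1A. Within LP day 1, KAL1 (also called ANOS1), which encodes the extracellular matrix protein anosmin, was the single gene that passed (0.00647% of 15467). It stood at 29.9 and 31.4 CPM in the CRY1-low and at 2.97 to 6.92 CPM in the CRY1-high LP day 1 samples, with a log2 fold change of -2.32 (FDR = 0.0445). With LP day 1 samples 3 and 4 summed, KAL1 gave -2.29 ± 0.30 and no longer passed (FDR = 0.18), and 0 of 15370 genes passed within LP day 1 (edgeR, 565 with an unadjusted p under 0.05). On SPs KAL1 stood at 3.18 and 8.94 CPM in CRY1-low and at 0.324 to 4.51 CPM in CRY1-high samples, and the ranges overlap. Over both photoperiods together KAL1 did not pass (FDR = 0.0535).

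No gene passed the test of the difference between the class effects of SP and LP day 1 (edgeR, 0 of 15189), with an unadjusted p under 0.05 for 544 genes (3.58%). DESeq2 called 5 genes (0.033%), DQA1, DBP, FBXL21, ARNTL, and ENSOARG00000011235. Of the 12 clock genes tested, DESeq2 called 3, DBP, FBXL21, and ARNTL, and edgeR called 0. With LP day 1 samples 3 and 4 summed, an alternative added after seeing the data, edgeR again called 0 genes and DESeq2 called 6, among them these 3. The values of DBP, FBXL21, and ARNTL are given by sample. DBP was at 94.5, 74.9, and 60.1 CPM in CRY1-high and at 153 and 157 CPM in CRY1-low SP samples. At LP day 1 it was at 100.3, 122, 113, and 125 CPM in CRY1-high and at 76.1 and 75.6 CPM in CRY1-low samples. The log2 fold change of DBP was -1.04 ± 0.19 within SPs (FDR = 0.205) and 0.62 ± 0.20 within LP day 1 (FDR = 0.901), neither of which passed. The difference between them was 1.65 ± 0.27 (edgeR FDR = 0.17).

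ARNTL, which activates CRY1 and DBP with CLOCK, had the reverse order. Its level was 53.8, 57.0, and 69.4 CPM against 33.9 and 30.9 CPM on SPs. After the first long day it was 40.9, 37.1, 53.4, and 33.9 CPM in CRY1-high and 57.7 and 66.9 CPM in CRY1-low samples. FBXL21, an F-box protein that binds cryptochromes, lay between 33.4 and 71.8 CPM in CRY1-high and at 28.3 and 24.5 CPM in CRY1-low SP samples. At LP day 1 it lay between 30.6 and 59.3 CPM in CRY1-high and at 104 and 126 CPM in CRY1-low samples. The classes of both genes were apart in each photoperiod and in opposite directions, while the tests within a photoperiod did not pass for either. With 3 against 2 and 4 against 2 samples, separation within a photoperiod arises readily by chance for any gene. The share of all genes apart in this way was not counted. The differences between the photoperiods were -1.53 ± 0.29 for ARNTL (edgeR FDR = 0.371) and -2.39 ± 0.43 for FBXL21 (edgeR FDR = 0.261).

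**Figure D3:**
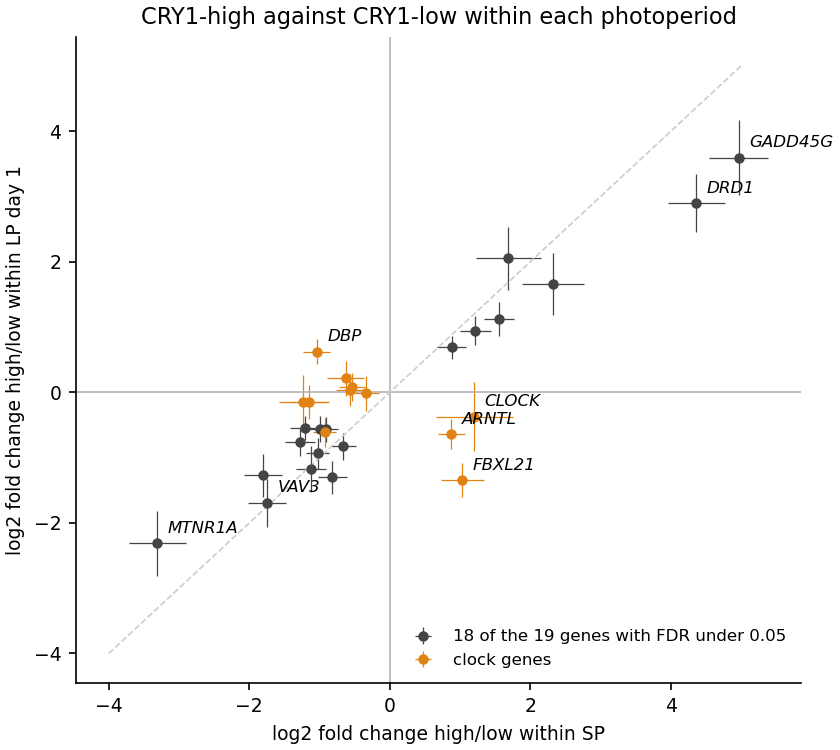
Log2 fold change of CRY1-high over CRY1-low samples within SP (x axis) and within LP day 1 (y axis), bars giving the SE. Grey points are 18 of the 19 genes with an FDR under 0.05 (ENSOARG00000020801 left out), orange points are clock genes, and the dashed line marks equal values. Grey points lie in the lower left and upper right, whereas DBP, ARNTL, and FBXL21 lie in the other quadrants. CLOCK, NR1D2, TEF, and CRY2 also lie there, TEF (0.08) and CRY2 (0.03) with small values within LP day 1.

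None of the 12 clock genes with a paired symbol that could be tested, of 28 listed, passed the test over both photoperiods together. Of the clock repressors other than CRY1, 4 were measured (PER3, CRY2, CIART, and BHLHE41) and 0 passed, with a median log2 fold change of -0.47 beside -0.0011 over all genes tested. NR1D1 came closest. It lay between 64.3 and 108 CPM (median 72.8) in CRY1-high samples and at 145, 110, 114, and 152 CPM in CRY1-low samples. Its classes did not overlap, with a log2 fold change of -0.77 ± 0.15 (FDR = 0.0508). PER3 (-0.67 ± 0.22, FDR = 0.429), CIART (-0.70 ± 0.28, FDR = 0.602), and CRY2 (-0.27 ± 0.17, FDR = 0.765) did not pass, and neither did BHLHE41 (-0.19 ± 0.16, FDR = 0.841). The other REV-ERB receptor, NR1D2, gave -0.21 ± 0.22, and TEF gave -0.24 ± 0.16. Within SPs and within LP day 1, PER3 gave -1.14 and -0.15, CIART -1.23 and -0.14, and CRY2 -0.56 and 0.03. NR1D1 gave -0.93 and -0.61, BHLHE41 -0.34 and -0.01, NR1D2 -0.63 and 0.22, and TEF -0.54 and 0.08. None of these passed the FDR within a photoperiod, and none passed the edgeR test of the difference. CLOCK gave 0.30 ± 0.43 (FDR = 0.917), at 0 CPM in the shallow LP day 1 sample 4 and at 1.32 to 10.2 CPM in the others, and ARNTL2 was too low to be tested, with at most 0.937 CPM in any of the 11 samples.

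Of the 15 measured genes known for photoperiod responses in the PT, MTNR1A was lower and none was higher at an FDR under 0.05, with a median log2 fold change of 0.06. TSHR, the TSH receptor, did not pass (log2 fold change 1.61 ± 0.32, FDR = 0.0637). It stood at 29.5, 30.8, and 88.3 CPM in CRY1-high and at 10.3 and 22.2 CPM in CRY1-low SP samples. At LP day 1 it stood at 75.9, 65.6, 94.9, and 49.9 CPM in CRY1-high and at 16.3 and 29.4 CPM in CRY1-low samples. The lowest CRY1-high and the highest CRY1-low values were thus 29.5 and 29.4 CPM. Over the 11 samples PDE10A, a cyclic nucleotide phosphodiesterase, gave -0.84 ± 0.26 (FDR = 0.349), and TSHB gave 1.03 ± 0.41 (FDR = 0.583), both with overlapping classes. PDE10A was apart within LP day 1, at 12.5 to 26.7 CPM in CRY1-high and 33.4 and 53.2 CPM in CRY1-low samples. TSHB was apart within SPs, at 265 to 664 CPM and at 47.0 and 207 CPM. Neither passed there (-1.39 ± 0.31, FDR = 0.477, and 2.01 ± 0.56, FDR = 0.527), and in the other photoperiod their classes overlapped. How many of all genes are apart within a photoperiod was not counted. Of 8 measured immediate early and cAMP-responsive genes, GADD45G was higher, and the other 7, among them EGR1 (0.61 ± 0.27), FOSL2 (0.76 ± 0.36), NR4A1 (0.45 ± 0.23), and GADD45B (-0.10 ± 0.23), did not pass. All 7 measured interferon-induced genes had negative values with a median of -1.16, and 0 passed. Negative values were found for 7625 of all 15189 genes. Their levels were scattered within the classes, MX2 for example from 0 to 27.7 CPM in CRY1-high and from 11.2 to 88.3 CPM in CRY1-low samples. Of the 11 samples, SP sample 3 (CRY1-low) was highest for MX2 (88.3 CPM), IFIT1 (153 CPM), and RSAD2 (11.3 CPM). Within LP day 1 these genes gave -0.11, 0.51, and -0.73.

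The same division was then applied to the LP day 7 and LP day 28 samples, which did not enter the choice of the classes or the test above. There, 6 samples were CRY1-high (123 to 314 CPM) and 6 CRY1-low (15.98 to 28.8 CPM). The CRY1-high samples were the even-numbered and the CRY1-low samples the odd-numbered ones of both groups, so that CRY1 class and sample number cannot be told apart at these times. In SP and LP day 1 both classes hold odd and even numbers, but LP day 1 sample 6 is the only even-numbered CRY1-low sample. The CRY1-low SP samples, 1 and 3, are both odd. At LP days 7 and 28, 151 of 14889 genes differed between the classes (1.01%), 44 higher (0.296%) and 107 lower (0.719%). Of the 19 genes, 18 were tested there and all 18 had the same direction (58.5% of all genes tested in both). A total of 11 passed there too, which is 57.9% of the 19 and 7.28% of the 151.

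DRD1 again stood higher in every CRY1-high sample (20.3 to 38.4 CPM) than in any CRY1-low sample (1.53 to 11.6 CPM) at LP days 7 and 28, with a log2 fold change of 2.20 ± 0.35 (FDR = 0.00288). MTNR1A lay between 0.537 and 7.02 CPM in CRY1-high and between 14.5 and 41.5 CPM in CRY1-low samples (-3.30 ± 0.40, FDR = 0.000329). MARCH4 lay between 17.1 and 35.3 CPM and between 54.9 and 97.4 CPM (-1.51 ± 0.18, FDR = 0.000305). The classes were apart for these 3 genes at all times measured. In CRY1-high samples the levels of GADD45G were below those of SP and LP day 1, a difference that was not tested. Its CRY1-low levels overlapped those of SP and LP day 1 (1.73 to 7.10 CPM). At LP days 7 and 28 GADD45G lay between 1.68 and 15.1 CPM in CRY1-high and between 0.284 and 2.61 CPM in CRY1-low samples (2.09 ± 0.38, FDR = 0.00722), and these ranges overlap. MTERF2 (1.29 ± 0.24), RD3L (1.65 ± 0.30), and SLCO3A1 (-0.82 ± 0.17) passed as well, whereas VAV3 (-0.72 ± 0.24, FDR = 0.249), PEG10 (-0.47 ± 0.18, FDR = 0.326), CYP4V2 (-0.46 ± 0.12, FDR = 0.0858), AMPD3 (-0.26 ± 0.21, FDR = 0.749), and MAST3 (-0.30 ± 0.10, FDR = 0.267) did not.

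Clock genes and PT genes that missed the threshold in SP and LP day 1 passed it at LP days 7 and 28. NR1D1 gave -1.55 ± 0.25 (FDR = 0.00289), CIART gave -2.01 ± 0.28 (FDR = 0.000844), BHLHE41 gave -1.25 ± 0.24 (FDR = 0.0125), DBP gave -0.90 ± 0.14 (FDR = 0.00284), and TEF gave -0.58 ± 0.10 (FDR = 0.00578). TSHR gave 2.19 ± 0.20 (FDR = 3.28e-05) and PDE10A gave -1.48 ± 0.18 (FDR = 0.000329). A call at one time and not at another does not show a difference, so the class effects were compared in a single fit over all 23 samples, chosen after seeing the data. None of these 7 genes passed that test. KAL1 lay between 7.72 and 13.3 CPM in CRY1-high and between 33.4 and 69.2 CPM in CRY1-low samples of LP days 7 and 28 (log2 fold change -2.10, FDR = 3.77e-05).

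**Figure D4:**
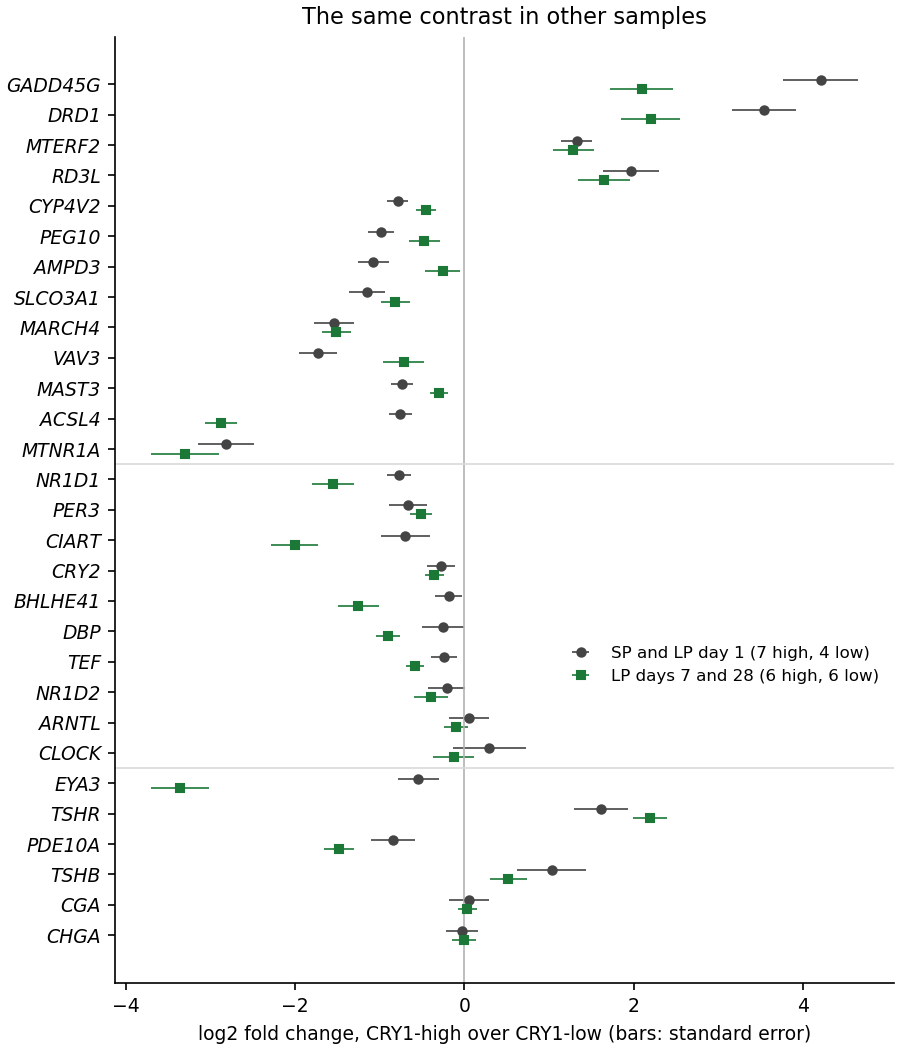
Log2 fold change of CRY1-high over CRY1-low samples with its SE in SP and LP day 1 (circles) and in LP days 7 and 28 (squares). The upper block holds 13 genes with an FDR under 0.05 in SP and LP day 1, the middle block clock genes, and the lower block PT photoperiod genes. In the upper block all genes have the same sign in both, and EYA3 and ACSL4 have much larger negative values in LP days 7 and 28.

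The class difference at LP days 7 and 28 differed from that in SP and LP day 1 for 3 of 14975 genes (0.02%), EYA3, ACSL4, and ENSOARG00000001811. EYA3, the coactivator of TSHB expression on long days, stood at 23.02, 36.0, and 35.0 CPM in CRY1-high and at 37.1 and 28.3 CPM in CRY1-low SP samples, with overlap. At LP day 1 it stood at 53.7, 30.3, 35.6, and 20.4 CPM in CRY1-high and at 60.4 and 75.6 CPM in CRY1-low samples, with no overlap (-0.93 ± 0.31 within LP day 1, without passing the FDR). At LP days 7 and 28 it lay between 30.9 and 58.5 CPM in CRY1-high and between 123 and 969 CPM in CRY1-low samples. The CRY1-high samples thus held EYA3 at up to 58.5 CPM at every time, while the CRY1-low samples ranged from 28.3 CPM on SPs to 969 CPM on later LPs. The log2 fold change was -0.54 ± 0.24 in SP and LP day 1 (FDR = 0.638) and -3.36 ± 0.34 later (FDR = 7.1e-05), a difference of -2.82 ± 0.48 (FDR = 0.0168).

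ACSL4 passed the test between the classes at both, and differed by more at the later times. Its call in SP and LP day 1 (FDR = 0.0252) was lost with LP day 1 samples 3 and 4 summed (FDR = 0.0695). ACSL4 lay between 75.5 and 117 CPM in CRY1-high and between 105 and 175 CPM in CRY1-low samples of SP and LP day 1. At LP days 7 and 28 it lay between 78.2 and 171 CPM in CRY1-high and between 462 and 1509 CPM in CRY1-low samples. The difference between the 2 log2 fold changes was -2.13 ± 0.25 (FDR = 0.000119). ENSOARG00000001811 had opposite signs (difference FDR = 0.0133). Its log2 fold change was -1.02 ± 0.23 in SP and LP day 1, which did not pass (FDR = 0.124). At LP days 7 and 28 it was 1.28 ± 0.29 (FDR = 0.0423), with overlapping classes.

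**Figure D5:**
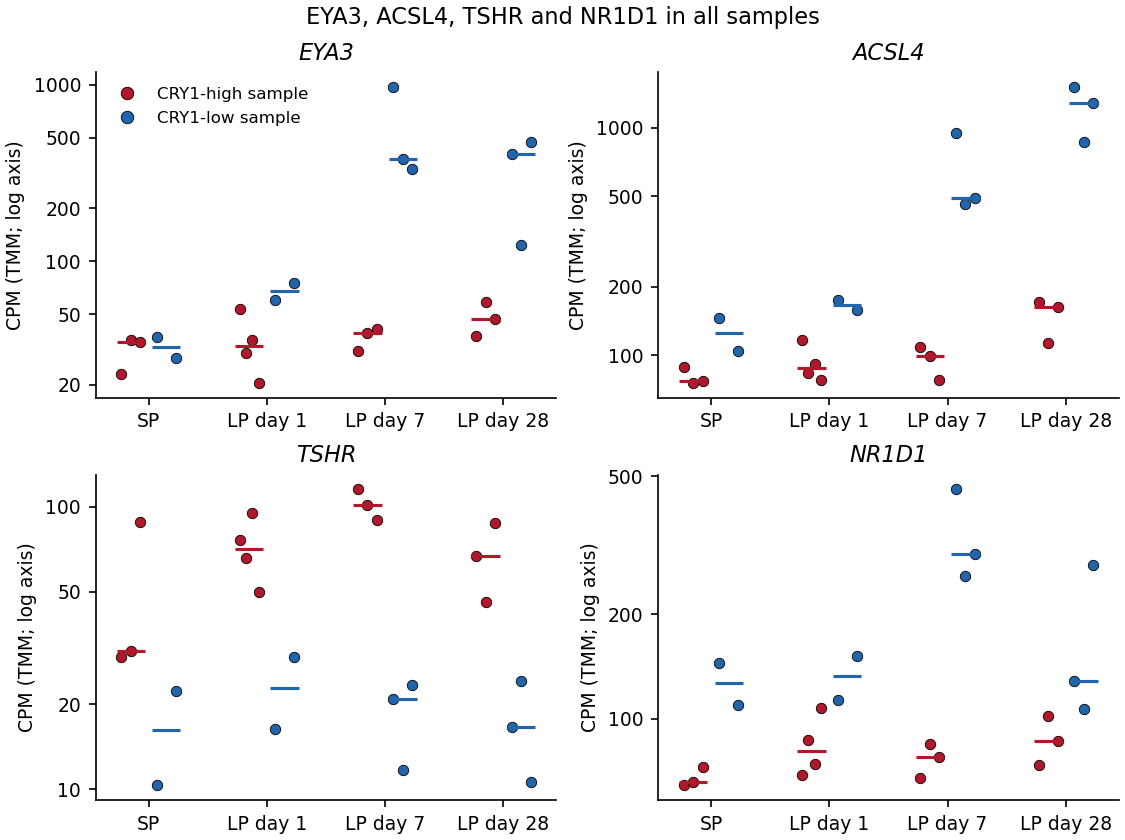
CPM (TMM normalized, log axes) of EYA3, ACSL4, TSHR, and NR1D1 in each sample of the 4 photoperiod groups. Points are samples and short lines are class medians. EYA3 and ACSL4 are highest in the CRY1-low samples of LP days 7 and 28, and TSHR is higher in CRY1-high samples of every group.

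With CRY1 class in the model, no gene passed the comparison of LP day 1 with SP (edgeR, 0 of 15189), and 524 genes had an unadjusted p under 0.05 (3.45%). The photoperiod term of GADD45G was 0.03 ± 0.35 and that of DRD1 was 0.13 ± 0.31. Both values lay within 1 SE of 0.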

How the data were processed

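RNA-seq of PT tissue was measured in 23 samples, and the SP and LP day 1 samples were compared by CRY1 class. The files the authors deposited hold raw read counts, whole numbers for 25197 Ensembl sheep genes in each sample. The submitters' processing notes name Bowtie, HTSeq, and the build Oar_v3.1, with no version for the tools. Which program counted the reads is not settled, and the use of strand is not given in the sources used here.

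Counts were normalized by TMM within the samples of a comparison. Genes were kept if they exceeded 1 CPM in 4 or more samples (6 at LP days 7 and 28) and were tested with the quasi-likelihood test of edgeR 4.0.16 (R 4.3.3) with photoperiod group as covariate and a Benjamini-Hochberg FDR under 0.05. Each SE was obtained from the log2 fold change and its F statistic, as the ratio of the former's size to the latter's square root. The scripts were tested on simulated data. Alternatives were DESeq2 1.42.0, limma 3.58.1 with voom, other normalizations and filters, covariates, CRY1 as a continuous value, and each sample left out in turn. The test of LP days 7 and 28 against SP and LP day 1 and the summing of LP day 1 samples 3 and 4 within LP day 1 and for the photoperiod interaction were added after seeing the data.

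The members and gene lists were chosen with earlier results of these data known. Symbols come from the study's gene tables, which pair 1259 identifiers with symbols and hold mostly genes that differ in the study. Of 204 list entries, 68 could be paired and 66 were tested. No member of the heat shock, unfolded protein response, cold-inducible, endothelial, or erythroid lists was paired, and the other lists not described in the results had no member that passed. Named genes were all paired clock genes, in each direction the 10 genes of largest fold change among those past the FDR with a symbol and no overlap in either photoperiod, the 3 members with the lowest p of each other list, and EYA3, TSHB, CGA, CHGA, and MTNR1A. KAL1, DQA1, NR4A1, GADD45B, and the genes without a symbol fall outside this rule and were named after their values were seen. Positions and sequences are not given.

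Depth ranged from 307952 to 3691321 counts in the samples compared. The libraries carried no stated molecular identifiers, so reads need not be independent molecules and detection limits cover counting error only.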

Additional observations from a re-analysis of the deposited data

Results flagged for a closer look

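A sample far from the rest of its CRY1 class, by Dixon's criterion, was found in 5 of 48 sets of values examined, where chance gives about 1 in 20. Among CRY1-high samples, ENSOARG00000004500 was at 94.8 CPM in SP sample 5 (next 74.9 CPM) and ACSL4 at 117 CPM in LP day 1 sample 2 (next 92.0 CPM). LP day 1 sample 4 held 307952 counts and 13681 genes with a count, where the next lowest CRY1-high samples held 2850268 counts and 16568 genes. Among CRY1-low samples, LP day 1 sample 6 held 1852503 counts, where the next held 3508733. Without LP day 1 sample 4, 12 genes passed the FDR threshold, and without LP day 1 sample 6, 11 did, all of them among the 19.

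The class difference at LP days 7 and 28 minus that in SP and LP day 1, tested in 1 fit, was -2.82 for EYA3, -2.13 for ACSL4, and 2.30 for ENSOARG00000001811 on the log2 scale. The class difference at LP day 1 minus that on SPs passed in DESeq2 only, with log2 values of 2.85 for DQA1 (FDR = 0.000298), 1.64 for DBP (FDR = 0.000362), -2.39 for FBXL21 (FDR = 0.000362), 1.97 for ENSOARG00000011235 (FDR = 0.0188), and -1.54 for ARNTL (FDR = 0.0284). None of these 5 passed with edgeR.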

How the results depend on the processing

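The count of 19 genes became 52 with no filter, 82 with DESeq2, 36 with limma voom, 55 with all 23 samples in one fit, 12 with LP day 1 samples 3 and 4 summed, and 6 at an FDR of 0.01. It was 7 within SPs alone, 1 within LP day 1 alone, and 0 within LP day 1 with samples 3 and 4 summed (565 at an unadjusted p under 0.05, edgeR). Leaving out 1 sample at a time gave 7 to 37 genes, with 7 without SP sample 1, 10 without SP sample 4, 11 without LP day 1 sample 6, 12 without LP day 1 sample 4, and 37 without LP day 1 sample 5. All 19 kept their direction in each of these fits except within LP day 1, where ENSOARG00000020801 turned to 3.65 with the pair kept apart, a value that depends on the prior count because both CRY1-low samples are at 0, and was not tested with the pair summed. With the parity of the sample number as a covariate, 13 of the 19 passed. With the GH1 level as a covariate, 23 genes passed, among them 18 of the 19. DESeq2 kept 18 of the 19. No pairing of the SP and LP day 1 samples by number was seen. The correlation of deviations between same-numbered samples was -0.166 to 0.0531, and 0 of 5 SP samples correlated best with their own number. Pairs of the same CRY1 class averaged only 0.0186, so these correlations cannot decide whether a number marks a pair. With the replicate block, which left 3 residual degrees of freedom, 7 genes passed, of which only GADD45G was among the 19. The block could not be fitted at LP days 7 and 28. The count for the photoperiod interaction went from 0 to 5 with DESeq2 and to 6 with DESeq2 and LP day 1 samples 3 and 4 summed, and stayed at 0 in each fit without 1 sample (0 to 0). The count at LP days 7 and 28 went from 151 to 263 with DESeq2 and lay between 111 and 158 without 1 sample. NR1D1 and TSHR, which missed the threshold, passed it with DESeq2 and with no filter. The causes were not tested. Depth limits genes near 3 counts, above all in LP day 1 sample 4.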
